A study of Rattus norvegicus with 16 samples.

Results

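The pubertal mammary gland of female rats whose mothers had received genistein and vinclozolin together was compared with that of untreated rats of the same age, postnatal day (PND) 35. The comparison rests on 4 arrays of the 16 in the series, chosen by their titles alone: 2 pools from the mixture group and 2 pools from the untreated control. Each pool combined RNA of 5 animals, extracted gland by gland, so the spread between pools is a spread between means of several rats. All rats were Wistar Han females on a purified diet free of phytoestrogens, with no genetic alteration named in the labels. Dams in groups of 15 were gavaged every day between gestational day 1 and weaning at PND 21, and the daughters, 1 per litter, were not dosed after weaning. The mixture held genistein, an isoflavone of soy with affinity for estrogen receptors, and vinclozolin, an antiandrogenic fungicide, at 1 mg/kg of each compound daily. The controls are labelled untreated, and whether they received vehicle is not given in those labels. Pools of vinclozolin alone, of genistein alone and of all 4 treatments at PND 50 served for comparison, with 2 pools in each.

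At PND 35 the rat mammary gland is a tree of ducts that end in terminal end buds, growing into a pad of fat. The ducts have an inner luminal epithelium, which can make milk proteins under prolactin, and an outer contractile myoepithelium, and mast cells and macrophages gather around the growing buds. Estrogen drives this growth through the epithelium and androgen restrains it. The gland lies just under the skin and over skeletal muscle, so muscle fibres and hair follicles are close to it.

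Values are the deposited ones, read as log2 intensities, and a difference of 1 between pools is a doubling. The tissue label was met by its markers. Epcam, an adhesion protein of epithelium, stood at 9.38 and 9.45 in the control pools and at 9.63 and 9.67 in the mixture pools, and Adipoq, the adiponectin gene of fat cells, at 12.74, 12.87, 12.75 and 12.68. Replicate pools correlated at 0.9966 for the control and 0.9959 for the mixture over all probe sets. Standard errors of the fold changes had a median of 0.0941 in log2 units over 11796 genes, and with 2 arrays a group the number of arrays limits precision. Tests used limma on all 16 arrays with Benjamini-Hochberg adjustment, n = 2 pools per group throughout. These p-values measure the spread between pools. In a whole gland, fewer cells of a type and less RNA in each cell cannot be told apart.

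No gene passed an adjusted p of 0.05 in the mixture against the control (0% of 11796 genes), and the smallest adjusted p was 0.106, for Lcp2. At an unadjusted p under 0.05 there were 963 genes higher (8.16%) and 836 lower (7.09%) with the mixture. Centring each array on its median turned that split into 1190 higher and 646 lower, and it shifted no list median described here to the other side of 0 except that of the luminal epithelium list, which went from -0.01 to 0.02. Both mixture pools lay above both control pools for 24.8% of all genes and below both for 25.9%. The differences that follow are given as measured values, and counts within a gene list are read against these shares. Of 87 genes with at least a 1.5-fold difference and no overlap between pools, 66 were higher and 21 lower. The higher ones were led by skeletal muscle genes, and the lower ones held milk protein genes, immune genes and the clock gene Npas2.

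**Figure D1:**
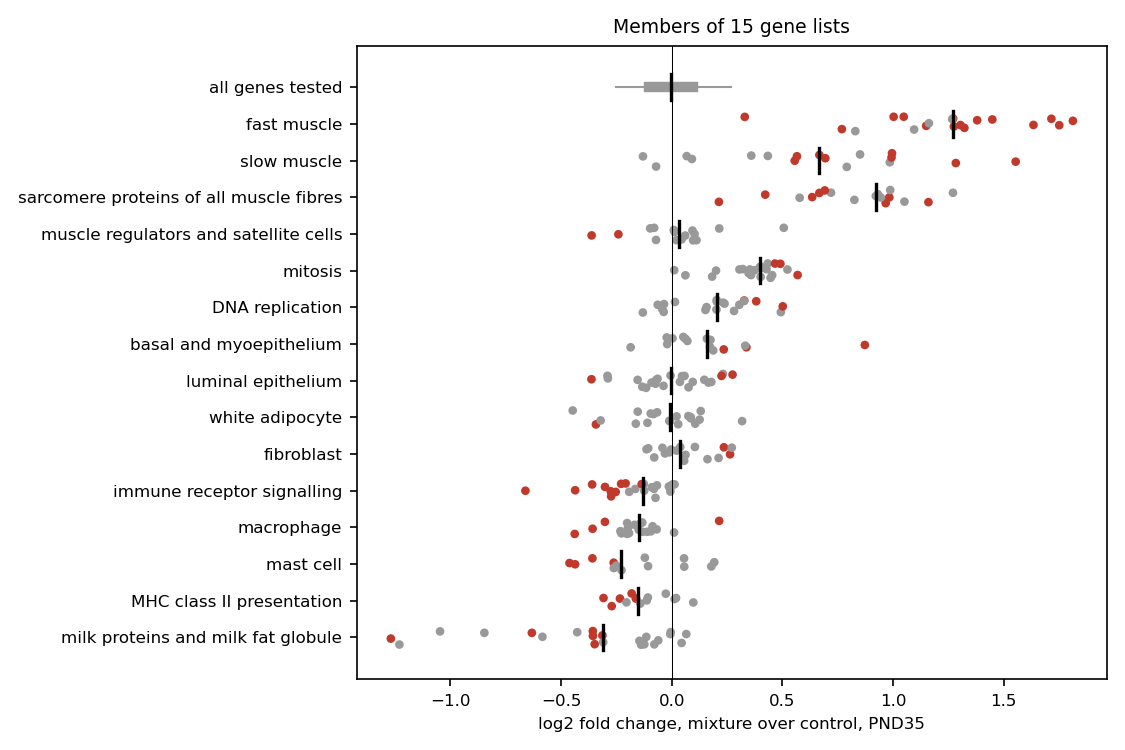
Log2 fold change of mixture over control at PND 35 (x axis) for the tested members of 15 gene lists (y axis). Points are genes, red where the unadjusted p was under 0.05; black bars are list medians, and for all genes the grey bar spans the middle 50% and the line the middle 90%. The fast muscle list has a median of 1.27, the mitosis list 0.40 and the milk list -0.31; no point passed the adjusted threshold.

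Skeletal muscle genes had the highest fold changes. Muscle fibres contract when myosin heads pull on actin, under control of the calcium-sensing troponin complex, and fast and slow fibres use different genes for these parts. All 19 tested fast-fibre genes were higher with the mixture, 15 of them at an unadjusted p under 0.05, and in all 19 both mixture pools were above both control pools. Their median log2 fold change was 1.27, beside -0.004 over all genes. Of 17 slow-fibre genes 15 were higher, 8 at an unadjusted p under 0.05, with a median of 0.67. All 17 sarcomere genes shared by the fibre types were higher, 8 at an unadjusted p under 0.05, with a median of 0.92.

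Pvalb, the calcium buffer parvalbumin of fast fibres, stood at 8.08 in both control pools and at 9.15 and 10.63 in the mixture pools. Its fold was 3.51 (log2 1.81, SE 0.48, adjusted p = 0.162), the largest increase of all genes tested. Tnnc2, the fast calcium-binding troponin, went from 7.73 and 7.98 to 8.69 and 10.45, a fold of 3.28 (log2 1.72, SE 0.51, adjusted p = 0.193). By the rule that named them the groups did not overlap for either gene, but the 2 mixture pools were further apart than the nearest mixture and control pools. Myh4, the fastest myosin heavy chain, showed the same layout with 8.71 and 8.81 against 9.65 and 11.36. Among slow-fibre genes, Myh7, the slow myosin heavy chain, measured 6.46 and 6.36 in the controls and 6.92 and 7.90 with the mixture (log2 1.00, SE 0.21, adjusted p = 0.157). Tnni1, the slow inhibitory troponin, measured 5.74 and 5.76 against 6.25 and 7.23 (log2 0.99, SE 0.23). Myl3, a myosin light chain of slow and cardiac muscle, measured 6.63 and 6.70 against 7.29 and 9.15 (log2 1.55, SE 0.40).

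Enzymes of muscle energy supply followed. Ampd1, the AMP deaminase of muscle, went from 7.51 and 7.77 to 8.25 and 9.93, and Ckm, the muscle creatine kinase, from 9.90 and 10.04 to 10.60 and 11.98. Prkag3, the muscle subunit of the energy sensor AMPK, went from 6.28 and 6.40 to 6.62 and 7.86, and Mylk2, the myosin light chain kinase of skeletal muscle, from 6.31 and 6.48 to 6.84 and 8.50. Ankrd23, an ankyrin repeat protein bound to titin, measured 7.12 and 7.16 against 7.499 and 8.82. In each of these genes pool 2 of the mixture was the highest of the 4.

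The muscle regulators were close to the controls. Of 16 genes for muscle transcription factors, satellite cells and the endplate, 11 were higher and 5 lower, with a median of 0.03, and the only members at an unadjusted p under 0.05 were lower: Mef2d (log2 -0.24, SE 0.08) and Chrne, a subunit of the adult acetylcholine receptor (log2 -0.36, SE 0.14). Myod1, the factor that commits cells to muscle, stood at 6.004, 5.94, 6.09 and 6.08, close to the filter value of 5.661. Myh3, the embryonic myosin, stood at 5.98, 5.93, 6.02 and 5.98. Myf6, a factor of mature fibres, had the highest log2 fold change of the list, 0.51 (SE 0.26), with 7.14 and 7.17 against 7.36 and 7.96.

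**Figure D2:**
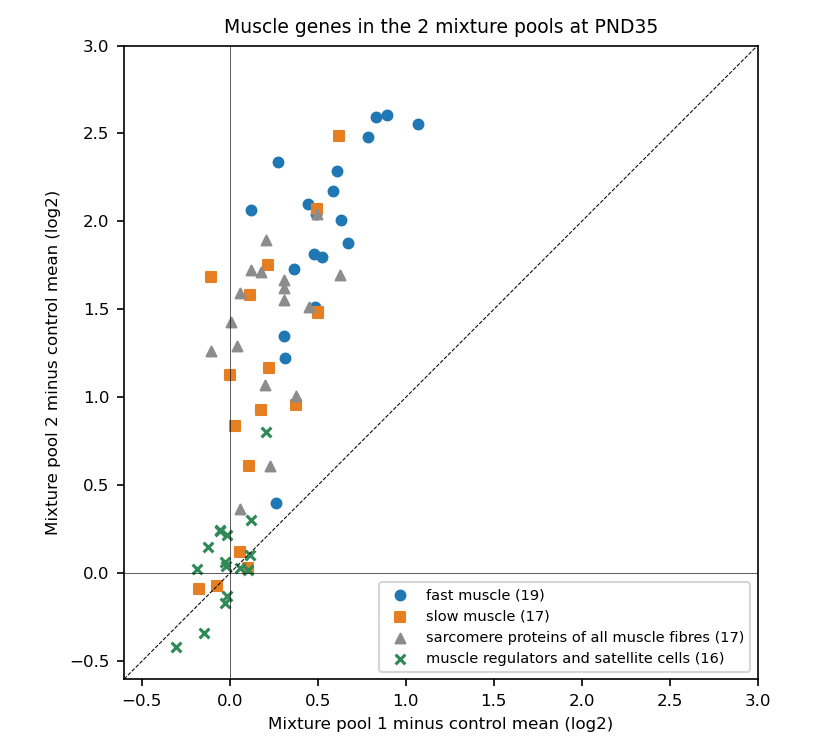
Difference of mixture pool 1 (x axis) and mixture pool 2 (y axis) from the mean of the 2 control pools, in log2 units, for tested muscle genes; the dashed line marks equal differences. All 19 fast-fibre genes lie above the line, with a median of 0.49 in pool 1 and 2.04 in pool 2, while the regulators lie around 0.

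The size of the muscle difference rested on the second mixture pool. Over the fast-fibre genes the median difference from the control mean was 0.49 in pool 1 and 2.04 in pool 2, and over the slow-fibre genes 0.12 and 1.13. Without mixture pool 2, all 19 fast-fibre genes were still higher but 2 had an unadjusted p under 0.05, and the median for genes of all fibres was 0.21. Without mixture pool 1, when the lone pool is assumed to vary like the other groups, 24 genes passed the limma test (0.203%), 20 of them higher. They included Myl3 (log2 2.48, adjusted p = 1.71e-05), Myh7 (1.49, adjusted p = 2.73e-05), Prkag3, Tnni1 and Ankrd23. Other groups also held pools that differed in muscle. The fast muscle score, the mean over the genes after each was centred on all arrays, was 0.13 and 0.27 in the controls, 0.73 and 2.14 with the mixture, 0.38 and 0.96 with genistein, and 1.20 and 0.01 with vinclozolin at PND 50. How much muscle was taken with each gland is not given in the labels, and its part in these values was not tested.

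The regions before the start of Tnnc2 and Pvalb are printed because these genes had the largest fold changes among those given by the rule for named genes, and because myogenic factors are known to bind E-boxes. The E-box, CANNTG (its reverse complement reads the same), was searched in the 250 bases before the start in RefSeq's GRCr8 promoters. It lay in 28 of 32 fast- and slow-fibre genes (87.5%) and in 65.2% of all 27457 promoters. Tnnc2 (chr3:173935340-173935589, minus strand) holds 3, with first bases at -250, -158 and -64 from the start, and Pvalb (chr7:111666290-111666539, minus strand) holds 2, at -63 and -19. Both are printed along the gene with the E-boxes in capitals.
Tnnc2: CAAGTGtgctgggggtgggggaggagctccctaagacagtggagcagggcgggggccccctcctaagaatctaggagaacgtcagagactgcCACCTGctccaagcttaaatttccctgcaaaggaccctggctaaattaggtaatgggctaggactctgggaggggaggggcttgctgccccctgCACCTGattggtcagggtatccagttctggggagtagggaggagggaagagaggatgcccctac
Pvalb: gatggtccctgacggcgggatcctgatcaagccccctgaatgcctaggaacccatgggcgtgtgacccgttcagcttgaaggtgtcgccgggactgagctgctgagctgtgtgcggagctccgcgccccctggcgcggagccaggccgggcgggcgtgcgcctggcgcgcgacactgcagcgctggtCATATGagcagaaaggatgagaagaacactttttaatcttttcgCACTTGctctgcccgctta
Such letters are common, and a match is a description of the sequence alone.

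Milk protein genes were lower with the mixture. Caseins and whey proteins are made by luminal cells when prolactin activates the factor STAT5, and before pregnancy their RNA is present at levels that vary with the cycle. Of 22 tested genes for milk proteins and the milk fat globule, 20 were lower and 2 higher. An unadjusted p under 0.05 was reached by 6 lower and 0 higher members, both mixture pools lay below both controls for 12, and the median was -0.31. The 6 became 3 without mixture pool 1, and 4 without control pool 1 or mixture pool 2.

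The casein Csn1s2b stood at 6.11 and 6.13 in the controls and at 5.46 and 5.51 in the mixture pools (log2 -0.63, SE 0.14, adjusted p = 0.157). Its mixture values lay below the filter value, near the dim end of the array. Wap, the whey acidic protein, went from 8.79 and 9.02 to 7.37 and 7.90, 2.41-fold lower (log2 -1.27, SE 0.40, adjusted p = 0.203) and the lowest log2 fold change of any gene tested. Csn1s1, the alpha casein, measured 12.95 and 12.88 against 12.62 and 12.51, Csn3, the casein that keeps micelles stable, 11.62 and 11.47 against 11.09 and 11.29, and Lalba, the lactose synthase subunit alpha-lactalbumin, 11.70 and 11.83 against 11.39 and 11.43. In each the groups were apart by a small step, with log2 fold changes near -0.35 (SE 0.11 to 0.13). Btn1a1, the butyrophilin of the fat globule, had -0.31 (SE 0.13).

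Other milk genes varied too much between replicate pools to be read. The beta casein Csn2 stood at 9.87 and 9.54 against 8.33 and 8.99 (log2 -1.05), and Csn1s2a at 8.97 and 8.04 against 7.19 and 7.36 (log2 -1.23). The groups did not overlap, but the standard errors were 0.98 and 1.13, because pools of other groups differed widely, as with genistein at 7.75 and 10.47 for Csn2. Glycam1, a mucin-like milk protein, measured 12.56 and 9.59 in the 2 control pools alone. The milk list's median was between -0.34 and -0.21 with any of the 4 pools left out, and -0.20 in a fit with the muscle score as covariate. Muscle genes were higher in the same pools, and their part in the milk values beyond that covariate was not tested. Genes of fat globule secretion were mixed: Xdh had a log2 fold change of 0.04 (SE 0.09) and Plin2 -0.12 (SE 0.09), while Btn1a1, given above, was lower.

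The start regions of 4 caseins are shown because these genes lie together on chromosome 14 and carry the letters of the STAT5 site at nearly the same distance. The letters TTCNNNGAA (the same on both strands) lay within 250 bases before the start in 6 of 21 milk genes (28.6%), and in 7.52% of all promoters. The match began at -100 from the start in Csn1s1 (chr14:20638850-20638999, minus strand) and Csn1s2b (chr14:20545619-20545768, minus strand), at -97 in Csn2 (chr14:20601674-20601823, plus strand) and at -102 in Csn1s2a (chr14:20574472-20574621, minus strand). The last 150 bases before each start are given along the gene, from RefSeq's GRCr8, with the match in capitals.
Csn1s1: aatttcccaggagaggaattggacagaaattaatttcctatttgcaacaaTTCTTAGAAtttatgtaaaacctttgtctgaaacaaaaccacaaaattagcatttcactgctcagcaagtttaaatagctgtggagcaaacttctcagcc
Csn2: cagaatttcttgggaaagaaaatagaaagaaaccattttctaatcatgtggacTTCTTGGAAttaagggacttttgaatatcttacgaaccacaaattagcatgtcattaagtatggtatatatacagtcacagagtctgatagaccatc
Csn1s2a: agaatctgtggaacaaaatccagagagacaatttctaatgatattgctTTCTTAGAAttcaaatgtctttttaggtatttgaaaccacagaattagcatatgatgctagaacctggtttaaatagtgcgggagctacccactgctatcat
Csn1s2b: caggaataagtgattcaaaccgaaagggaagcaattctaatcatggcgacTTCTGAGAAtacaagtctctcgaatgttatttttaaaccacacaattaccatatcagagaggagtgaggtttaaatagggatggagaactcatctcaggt
Lao1 and Glycam1 were the other matches. These letters were not found in the windows of Wap, Lalba or Csn3, which says nothing of how those genes are controlled.

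The receptors through which the compounds are known to act differed little. Esr1, the estrogen receptor alpha, stood at 10.69 and 10.36 in the controls and at 10.35 and 10.10 with the mixture, 1.23-fold lower (log2 -0.30, SE 0.13, adjusted p = 0.319). Pgr, the progesterone receptor and an estrogen target, measured 9.46 and 9.11 against 9.47 and 9.64 (log2 0.27, SE 0.32), and Prlr, the prolactin receptor, 9.79 and 9.64 against 9.86 and 9.64 (log2 0.04, SE 0.14). Of 12 steroid, prolactin and growth hormone receptors tested, 5 were higher and 7 lower, with 3 lower members at an unadjusted p under 0.05. Esr2, the estrogen receptor beta, lay under the filter.

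Targets of these receptors had small list medians, and the members at an unadjusted p under 0.05 went against the majority of their list. Of 15 estrogen and progesterone targets 11 were higher and 4 lower (median 0.12), with 1 lower member at an unadjusted p under 0.05. Areg, the EGF-like growth factor of ductal growth, stood at 9.52 and 8.77 against 9.47 and 9.31, and Wnt4, a progesterone target, at 7.30 and 7.15 against 7.33 and 7.18. The groups overlapped for both. Of 11 androgen targets 4 were higher and 7 lower (median -0.08), with 2 higher members at an unadjusted p under 0.05. These were Sms (log2 0.44, SE 0.13) and Acsl3 (0.36, SE 0.09). Zbtb16 had the lowest log2 fold change of the list, -0.75 (SE 0.38), with 10.38 and 9.88 against 9.85 and 8.91. Both mixture pools lay below both controls for 5 of the 11 and above for 2, beside 25.9% and 24.8% of all genes. Igf1, the growth factor of the fat pad, was at 12.49 and 12.47 against 12.37 and 12.28 (log2 -0.16, SE 0.07), and Tnfsf11, the progesterone-induced cytokine RANKL, lay under the filter.

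Genes of mitosis were higher in both mixture pools, with median differences from the control mean of 0.38 and 0.40. All 22 tested genes of mitosis were higher, 3 at an unadjusted p under 0.05, and in 19 both mixture pools were above both controls; the median was 0.40. Ndc80, a kinetochore protein, stood at 7.49 and 7.16 against 7.80 and 7.99 (log2 0.57, SE 0.25, adjusted p = 0.317). Ccnb2, a mitotic cyclin, stood at 8.29 and 7.86 against 8.61 and 8.59, and Kif11, a spindle motor, at 8.30 and 8.004 against 8.61 and 8.56. Control pool 2 was the lowest of the 4 in each of these. Oip5, a factor that loads centromeres, measured 6.03 and 5.86 against 6.53 and 6.63 (log2 0.63, SE 0.20). Of 20 DNA replication genes 15 were higher, 3 at an unadjusted p under 0.05, with a median of 0.20. Their median difference was 0.15 in mixture pool 1 and 0.28 in pool 2. Without control pool 2 the median was 0.11 and 13 of 20 genes were higher, and 1 gene reached an unadjusted p under 0.05 without that pool or without mixture pool 2. Tyms, the thymidylate synthase, had the tightest values, 8.69 and 8.70 against 9.04 and 9.11 (log2 0.38, SE 0.10, adjusted p = 0.157). The mitosis score was 0.38 and 0.15 in the controls and 0.62 and 0.63 with the mixture. At the same age it was 0.02 and 0.58 with genistein alone and -0.22 and 0.32 with vinclozolin alone. Replicate pools of these single-compound groups were thus further apart than the control and mixture means. Without control pool 2 the median was 0.28, and 20 of 22 genes were higher; without that pool or without mixture pool 2, 0 genes reached an unadjusted p under 0.05. With the muscle score as a covariate the median was 0.31. Ccnd1, the cyclin of the G1 phase, had a log2 fold change of 0.23 (SE 0.11), and Mki67 has no probe set named here.

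The epithelial layers were described by their own markers. Of 23 luminal genes 11 were higher and 12 lower, with a median of -0.01; the luminal score was -0.25 and -0.42 in the controls and -0.31 and -0.38 with the mixture. Elf5, the factor of milk-producing cells, stood at 9.82 and 9.60 against 9.59 and 9.70 (log2 -0.06, SE 0.13), with groups that overlapped. Of 15 basal and myoepithelial genes 12 were higher, 3 at an unadjusted p under 0.05. Against the same controls the median of this list was 0.29 with vinclozolin alone and 0.29 with genistein alone, beside 0.16 with the mixture. Krt17, a keratin of basal cells and of skin appendages, measured 7.57 and 6.80 against 8.09 and 8.03 (log2 0.87, SE 0.21, adjusted p = 0.157), with control pool 2 well below the rest. Itga6, an integrin subunit that anchors basal cells, measured 10.04 and 10.03 against 10.31 and 10.23 (log2 0.23, SE 0.06), and Actg2, a smooth muscle actin, 9.49 and 9.62 against 9.89 and 9.90 (log2 0.34, SE 0.13). Tp63, the factor that marks basal cells, was at 8.51, 8.47, 8.50 and 8.49, and the median of the list was 0.16, or 0.077 without control pool 1 and 0.089 without control pool 2.

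Several immune lists held more lower than higher genes with the mixture, by small steps and with no gene past the adjusted test. The signalling, macrophage, mast cell and MHC class II lists also had medians below 0 with each compound alone, as given below. Of 24 genes for signalling from immune receptors, 22 were lower, 10 at an unadjusted p under 0.05, and in 16 both mixture pools lay below both controls; the median was -0.13. Lcp2, the adaptor SLP-76 of T cells, mast cells and platelets, stood at 9.41 and 9.50 in the controls and at 8.84 and 8.74 with the mixture, 1.58-fold lower (log2 -0.66, SE 0.11, adjusted p = 0.106). Lyn, a kinase of the same pathways, measured 10.05 and 9.97 against 9.66 and 9.49, Btk, a kinase of B and mast cells, 6.96 and 6.85 against 6.58 and 6.51, and Itgb2, the leukocyte integrin chain, 8.44 and 8.43 against 8.05 and 8.21. The broad leukocyte marker Ptprc was at 8.30, 8.31, 8.24 and 8.40, with no gap between groups.

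Mast cell and macrophage genes pointed the same way in part. Hdc, which makes histamine, stood at 8.45 and 8.49 against 8.03 and 7.99 (log2 -0.46, SE 0.09, adjusted p = 0.139), Cpa3, the mast cell carboxypeptidase, at 11.27 and 11.18 against 10.94 and 10.79, and Cma1, a chymase, at 9.32 and 9.51 against 8.999 and 8.96. Yet Kit, the mast cell growth factor receptor that luminal cells also carry, and Tpsab1, a tryptase, had log2 fold changes of 0.18 and 0.19. Of 13 mast cell genes 9 were lower (4 at an unadjusted p under 0.05) and 4 higher. Of 21 macrophage genes 19 were lower, 3 at an unadjusted p under 0.05, and Mpeg1, a pore-forming protein, was higher (log2 0.21, SE 0.09). Cx3cr1, the fractalkine receptor, measured 7.43 and 7.19 against 6.78 and 6.97, and C1qb, a complement part, 9.99 and 10.12 against 9.78 and 9.73. Cd163, a marker of resident macrophages, overlapped at 9.98 and 10.22 against 10.11 and 10.10.

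Chemokines that recruit monocytes were among the lower genes. Ccl2 stood at 11.62 and 11.52 against 11.08 and 10.96 (log2 -0.55, SE 0.14, adjusted p = 0.157). Ccr2, its receptor, stood at 10.19 and 9.52 against 9.04 and 9.18 (log2 -0.74, SE 0.19), with control pool 1 above the others, and Ccl22, a macrophage and dendritic chemokine, at 7.13 and 6.65 against 6.37 and 6.01. Of 25 chemokines and receptors tested 16 were lower, 6 at an unadjusted p under 0.05, and none of the 9 higher ones reached it. Of 14 genes for antigen presentation on MHC class II molecules 11 were lower, 5 at an unadjusted p under 0.05, among them RT1-Ba (log2 -0.31, SE 0.08). Of 15 T and NK cell genes 10 were lower and 5 higher, and Cd3e, part of the T cell receptor, overlapped between groups at 5.94 and 6.17 against 6.19 and 6.16. Leaving out any of the 4 pools kept the medians of the immune signalling, macrophage, mast cell and MHC class II lists below 0. Without control pool 1, or without mixture pool 2, 4 of the 24 signalling genes had an unadjusted p under 0.05. Counts of lower genes at that level went from 3 to 0 for macrophage genes without mixture pool 1, and to 1 without control pool 2. For mast cell genes they went from 4 to 1 without mixture pool 2 and to 2 without control pool 1. For MHC class II genes they went from 5 to 2 without control pool 1 and to 3 without either mixture pool, and for chemokines from 6 to 3 without control pool 1 or mixture pool 1. With the muscle score as a covariate the medians were -0.14 for immune signalling, -0.17 for macrophage, -0.11 for mast cell and -0.09 for MHC class II genes. Against the same controls, medians with vinclozolin, genistein and the mixture were -0.16, -0.12 and -0.13 for immune signalling. In that order they were -0.31, -0.23 and -0.15 for macrophage and -0.32, -0.24 and -0.23 for mast cell genes. For MHC class II genes they were -0.15, -0.12 and -0.15. T and NK cell genes differed, at -0.02, 0.01 and -0.13.

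Interferon genes set the 2 mixture pools apart instead of the groups. Mx1, an antiviral GTPase, stood at 7.61 and 7.21 in the controls and at 7.095 and 8.91 with the mixture. The median difference of 23 interferon-induced genes from the control mean was -0.08 in pool 1 and 0.42 in pool 2, the pool that was also high in muscle genes.

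**Figure D3:**
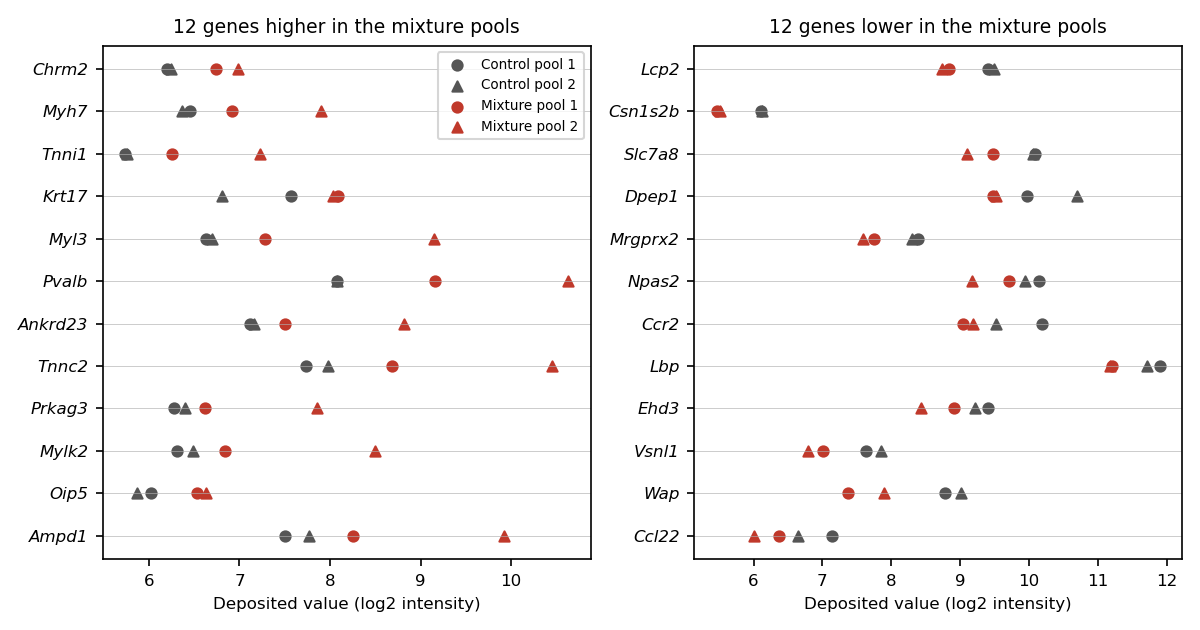
Deposited log2 intensity (x axis) of the 12 genes with the smallest unadjusted p in each direction among those with at least a 1.5-fold difference and no overlap between groups (y axis). Grey symbols are control pools and red symbols mixture pools; mixture pool 2 lies furthest right for the muscle genes, up to 10.63 for Pvalb, while the lower genes such as Lcp2 have close pairs.

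The remaining named genes were members of none of the gene lists described above. Chrm2, a muscarinic acetylcholine receptor, measured 6.19 and 6.25 against 6.74 and 6.98 (log2 0.64, SE 0.13, adjusted p = 0.138). Slc7a8, a carrier of neutral amino acids, measured 10.09 and 10.06 against 9.47 and 9.10 (log2 -0.79, SE 0.18, adjusted p = 0.157), and Lbp, which binds bacterial lipopolysaccharide, 11.90 and 11.72 against 11.21 and 11.18 (log2 -0.62, SE 0.17). Dpep1, a dipeptidase, stood at 9.97 and 10.70 against 9.48 and 9.52, and Mrgprx2, a receptor of the Mas-related family, at 8.39 and 8.30 against 7.74 and 7.60. Vsnl1, a neuronal calcium sensor, stood at 7.63 and 7.85 against 7.01 and 6.80, and Ehd3, a protein of endosome recycling, at 9.41 and 9.22 against 8.91 and 8.44. All 7 were named by the rule that takes only genes without overlap between groups, so their separation is no result.

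Genes of the circadian clock were singled out after their values had been seen, starting from Npas2. In the clock, the activators Bmal1, Clock and Npas2 switch on genes such as Nr1d1, Dbp, Tef and the Per genes, and Nr1d1 represses the activators. Npas2 stood at 10.14 and 9.94 in the controls and at 9.71 and 9.18 with the mixture (log2 -0.60, SE 0.15, adjusted p = 0.157), and Bmal1 at 8.69 and 8.51 against 8.41 and 7.83 (log2 -0.48, SE 0.17). Nr1d1 stood at 8.004 and 9.80 against 10.09 and 10.52 (log2 1.40, SE 0.58, adjusted p = 0.288), Dbp at 9.42 and 9.98 against 10.004 and 10.64, and Tef at 7.28 and 7.64 against 7.66 and 8.14. Mixture pool 2 was at one end and control pool 1 at the other for each of these 5. Per3 overlapped between groups (7.80 and 8.76 against 8.65 and 9.32), as did Per1 and Per2. Of 15 clock genes tested, 5 were higher and 3 lower at an unadjusted p under 0.05; with mixture pool 2 left out it was 0 and 1. The labels used here do not give the hour at which glands were taken.

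The mixture was next compared with each compound alone at the same age, at the same dose of that compound. These groups are all read against the same 2 control pools, so values are given side by side. Against vinclozolin alone, 137 genes were higher (1.16%) and 171 lower (1.45%) with the mixture past an adjusted p of 0.05. The lower ones held many hair follicle genes. Krt85, a hair keratin, stood at 10.39 and 9.99 with vinclozolin and at 7.22 and 6.996 with the mixture, near the controls at 6.94 and 6.999 (mixture minus vinclozolin log2 -3.08, SE 0.14, adjusted p = 1.26e-07). Of 15 tested hair follicle genes, 11 would pass the filter without the 2 vinclozolin pools, and 10 of these 11 were lower with the mixture past the test. The other 4 passed the filter through the vinclozolin pools alone and support nothing here. Krt25, of the inner root sheath, is among those 4, with 10.48 and 10.59 on vinclozolin and values below the filter with the mixture (5.36 and 4.86) and in the controls (4.98 and 5.03). Of 8 keratinocyte genes, all of which pass the filter without those pools, 4 were lower. Against the control the hair follicle median was -0.06. How much skin was taken with each gland is not given in the labels, and its part in these values was not tested.

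Fewer genes of the other lists passed this test: 1 of 19 fast muscle, 2 of 17 slow muscle, 0 of 17 sarcomere, 3 of 17 fibroblast and 1 of 22 milk genes. Lower with the mixture past it were 3 of 15 basal and myoepithelial genes and 2 of 23 luminal genes. Of 16 genes for matrix metalloproteinases and their inhibitors 2 were higher and 1 lower. Pvalb (log2 2.22, SE 0.48, adjusted p = 0.0357), Ankrd23 (1.31), Myh7 (1.06, adjusted p = 0.0291) and Myoz2, a sarcomere protein (0.98), were higher with the mixture. So was Chrm2, at 6.74 and 6.98 against 6.41 and 6.21 with vinclozolin (log2 0.55, SE 0.13, adjusted p = 0.046). The fibroblast genes Fap, a surface protease (log2 0.54), Col1a2, a collagen chain (0.42), and Fn1, fibronectin (0.34), were higher past the test, and Tyms was higher by 0.49 (SE 0.10, adjusted p = 0.0257). Btn1a1 (log2 -0.59, SE 0.13, adjusted p = 0.0349), Slc7a8 (-1.07, SE 0.18, adjusted p = 0.0118), Lbp (-1.003, SE 0.17, adjusted p = 0.0108) and Npas2 (-0.68, SE 0.15, adjusted p = 0.0407) were lower. Krt17, which was higher than control with the mixture, was lower than with vinclozolin (log2 -1.86, SE 0.21, adjusted p = 0.000565). The 308 genes were 67 without mixture pool 2 and 770 without vinclozolin pool 1.

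Against genistein alone no gene passed (0%). The smallest adjusted p by limma was 0.214, and 1417 genes had an unadjusted p under 0.05. For Lcp2, Hdc, Ccl2 and Ccr2 all pools of genistein alone and of vinclozolin alone were below both controls as well. Lcp2 stood at 8.95 and 8.99 with genistein and at 8.93 and 8.96 with vinclozolin, and the mixture differed from them by log2 -0.18 (SE 0.11) and -0.15 (SE 0.11), neither past the test. Hdc stood at 8.01 and 8.07 with genistein and at 7.86 and 7.87 with vinclozolin. Npas2 was otherwise, with 10.18 and 10.03 on genistein and 10.17 and 10.08 on vinclozolin, close to the controls.

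**Figure D4:**
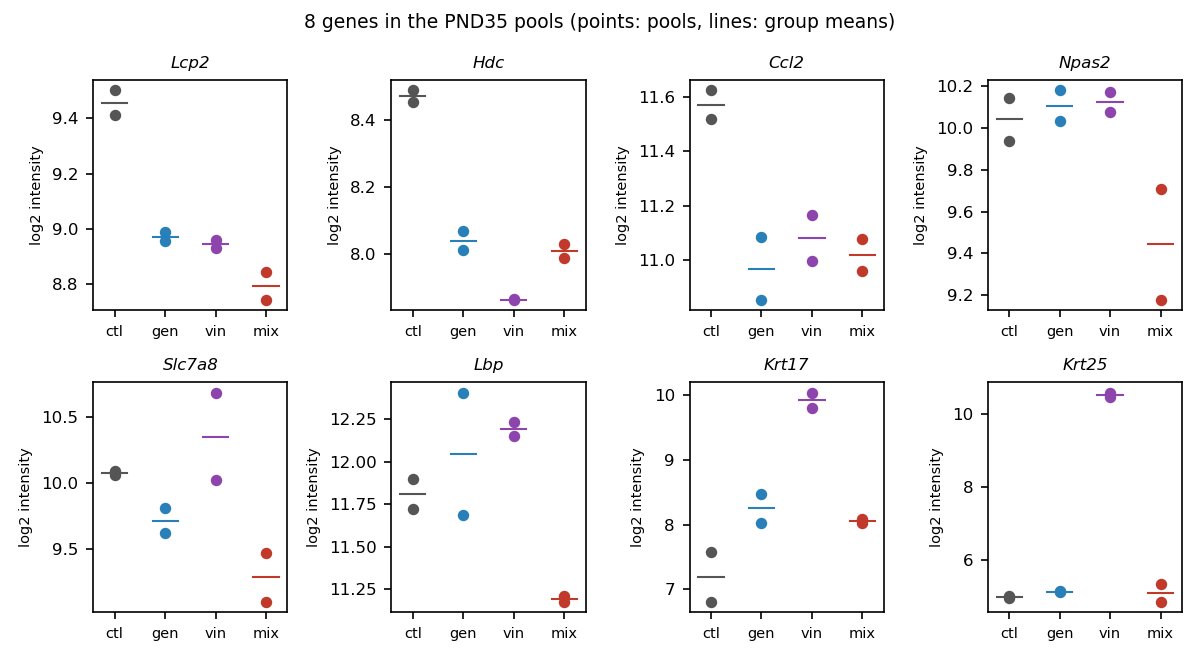
Deposited log2 intensity (y axes, each panel on its own range) of 8 genes in the PND 35 pools of control (ctl), genistein (gen), vinclozolin (vin) and mixture (mix); points are pools and lines group means. Krt25 is high with vinclozolin alone (10.48 and 10.59), Lcp2, Hdc and Ccl2 are highest in the control, and Npas2 and Lbp are lowest with the mixture.

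A further test set the mixture against the sum of both single effects, that is, the mixture's log2 difference from control minus those of genistein and of vinclozolin. Higher than the sum were 38 genes (0.322%) and lower 147 (1.25%). Besides 10 of the 11 hair follicle genes that pass the filter without the vinclozolin pools, the lower ones held 8 of 23 luminal epithelium genes. Elf5 stood at 10.44 and 10.28 with genistein, 9.95 and 10.12 with vinclozolin and 9.59 and 9.70 with the mixture, against 9.82 and 9.60 in the controls, 1.04 below the sum (log2 -1.04, SE 0.19, adjusted p = 0.0221). Ehf, another epithelial factor, stood at 10.18 and 9.91, 9.83 and 10.26, and 9.55 and 9.57, against 9.42 and 9.51 (log2 -1.07, SE 0.18, adjusted p = 0.0174). Grhl2, a factor of epithelial junctions, Esrp1 and Esrp2, splicing factors of epithelium, Cdh1, which encodes E-cadherin, Spint2, a protease inhibitor, and Kit were the other 6. In all 8 the mean of each compound alone was above the control mean, and the mixture mean was within 0.18 of it in log2 units. All 23 luminal genes had a negative departure (median -0.69), also in every fit without 1 of the 8 PND 35 pools except that without control pool 2 (22 of 23). The number past the test was 0 without control pool 2, genistein pool 1 or mixture pool 2, between 3 and 4 without control pool 1, vinclozolin pool 2 or mixture pool 1, and 15 and 16 without genistein pool 2 and vinclozolin pool 1. Btn1a1 (log2 -0.97, SE 0.18) and Lbp (-1.24, SE 0.24, adjusted p = 0.0285) were also below the sum, and Fap was above it (0.64, SE 0.11).

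At PND 50 the mixture was compared with control pools of that age, which are different arrays. The difference between the effects at both ages was past the limma test for no gene (0%). Its smallest adjusted p was 0.139, with 1435 genes at an unadjusted p under 0.05. Fast muscle genes had a median log2 fold change of -0.42 at PND 50, beside 1.27 at PND 35, and mitosis genes -0.53 beside 0.40. The fast muscle score at PND 50 was -0.84 and -0.96 in the controls and -0.84 and -1.70 with the mixture. Only mixture pool 2 was apart there. The mitosis score was -0.61 and 0.09 in the controls against -0.71 and -0.79, with control pool 2 well above the rest. For Pvalb the difference between ages was 2.30 (SE 0.68, adjusted p = 0.293), with 6.34 and 6.17 in the controls and 6.30 and 5.23 with the mixture at PND 50. Lcp2 stood at 9.53 and 9.50 against 9.56 and 9.73 at PND 50 (difference between ages log2 -0.80, SE 0.15, adjusted p = 0.205). The milk list had a median of 0.01 at PND 50 and the immune signalling list -0.05. Nr1d1 was higher with the mixture at PND 50 as well, at 10.13 and 10.02 against 8.51 and 8.75. Npas2 was not lower at that age, at 10.32 and 10.39 in the controls and 10.47 and 10.66 with the mixture. Its difference between ages was log2 -0.81 (SE 0.21, limma adjusted p = 0.260).

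**Figure D5:**
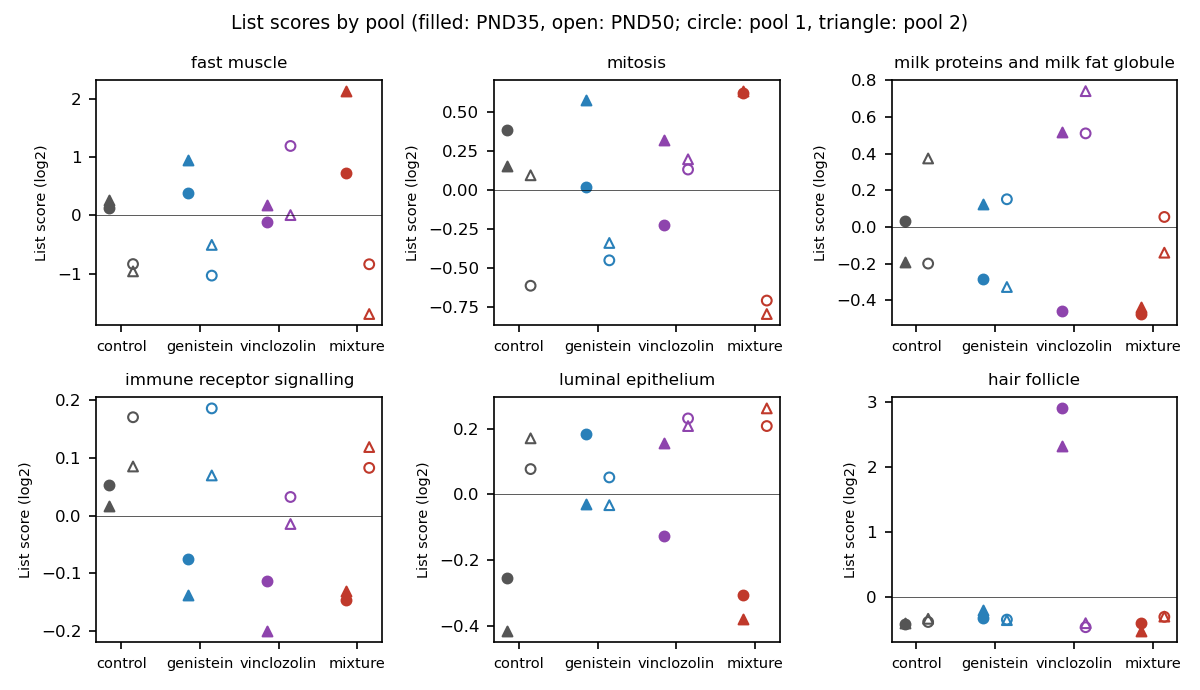
List score of each of the 16 pools (y axis, log2, mean over a list's tested genes after centring each gene on all arrays) by treatment (x axis), filled at PND 35 and open at PND 50. At PND 35 the mixture pools have fast muscle scores of 0.73 and 2.14 against 0.13 and 0.27 in the controls, mitosis scores of 0.62 and 0.63, and the hair follicle score is raised with vinclozolin alone.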

How the data were processed

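The series holds 16 arrays, 2 for each of 8 groups of treatment and age, grouped and numbered by their titles. The table deposited by the authors gives 1 value for each of 27342 probe sets and array. From their range, 2.2 to 13.9, these deposited values were read as log2 intensities that the authors had already normalized and summarized by probe set; which log base, background correction and normalization they used is not stated in any source used here. The median of an array ran from 7.05 to 7.145, and values were used without more scaling. Probe sets were named through the platform annotation (15097 with 1 symbol, 323 with several, 11922 not listed), and 15067 matched a RefSeq gene of GRCr8, used for names and promoter sequences. For the 499 of 14324 symbols with several probe sets the one of highest mean was kept. Genes with a mean under the 25th percentile of probe sets (5.661) were left out, which left 11796.

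Group means were fitted over all 16 arrays with limma 3.58.1 in R 4.3.3 (lmFit, eBayes, 8 residual degrees of freedom), two-sided, with Benjamini-Hochberg adjustment over all genes and a threshold of 0.05. There were 5 comparisons with the mixture. The fit was tested on simulated data. The comparison and the 39 gene lists (744 genes, 645 named on the array, 612 tested) were chosen with earlier results of these data known, and lists were described by counts and medians only. Named genes were the 12 of smallest unadjusted p in each direction with at least a 1.5-fold difference, no overlap between pools and no placeholder symbol, up to 4 members of each list described, and a panel of hormone receptor, growth and milk genes; other list members were chosen as examples after their values were seen. The clock list was added after values were seen. Replicate numbers do not pair the pools: nothing in the labels ties them. Alternatives varied the filter, scaling, probe set choice, model and arrays used, and left out each pool. Protein sequences were not used here. Figures used matplotlib 3.10.9.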

Additional observations from a re-analysis of the deposited data

Results flagged for a closer look

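Some differences between the mixture and vinclozolin alone at PND 35 passed the test of the difference itself, with limma and adjustment over all genes, though no gene passed in the mixture against control. They numbered 308 genes, and 185 genes departed from the sum of both single effects. Of the genes named here, the mixture was above vinclozolin for Pvalb by 2.22, Ankrd23 by 1.31, Myh7 by 1.06 and Chrm2 by 0.55, and below it for Krt17 (-1.86), Slc7a8 (-1.07), Lbp (-1.003) and Npas2 (-0.68), in log2 units. In all 8 both mixture pools lay on the same side of both vinclozolin pools. Krt25 (-5.42) is listed as well, but it passed the filter through the vinclozolin pools alone and its mixture values lay below the filter value of 5.661, so its test supports nothing. The vinclozolin pools of this age were the least alike of all groups (r = 0.9893, SD of their difference 0.303 against 0.19 for the mixture). Groups of 2 pools are too small for a search for single outlying pools.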

How the results depend on the processing

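Among counts of genes, 172 of the alternatives stayed within 1.5 times the reported count and 45 did not. Of the gene values 917 kept direction and side of the threshold, 10 passed it and 8 turned sign; of the list medians 1008 moved by less than the spread between pools and 82 by more. The replicate number as a block gave 0 genes in the mixture against control, 962 higher and 872 lower at an unadjusted p under 0.05, 344 against vinclozolin, 0 against genistein, 0 between ages and 203 against the sum; the same-number correlation of control and mixture pools was 0.172, from -0.366 to 0.301 over all 28 such pairs, so the numbers were not taken as pairs. The block left each of these counts within 1.5 times.

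Without the filter on dim genes 1 gene passed in the mixture against control (Olr995, log2 -0.90, limma adjusted p = 0.0141) and 2 between ages (Olr995 and Reg3g), all 3 values from genes below the filter. A filter at the 50th percentile left 1951 non-overlapping lower genes. Counted by probe set there were 1567 higher and 1566 lower at an unadjusted p under 0.05, 4836 and 5647 without overlap, 472 against vinclozolin and 284 against the sum, since more features were tested. Against vinclozolin, array weights gave 147; the PND 35 arrays alone gave 63, and 33 against the sum. With the muscle score as a covariate there were 353 higher and 252 lower at an unadjusted p under 0.05, 48 against vinclozolin and 68 against the sum, and Elf5 turned to 0.046; the cause was not tested. An adjusted threshold of 0.10 gave 867 and 420. Median centring, which gave 1190 and 646, and quantile normalization, with 815 and 777, kept every count within 1.5 times. Leaving out the muscle lists gave no median for them.

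Leaving out each of the 16 pools gave 0 to 24 genes in the mixture against control, 411 to 1018 higher and 370 to 938 lower at an unadjusted p under 0.05, 67 to 770 against vinclozolin, 0 to 78 against genistein, 0 to 8 between ages and 49 to 764 against the sum. The 24 came without mixture pool 1, which also gave the 8; without either genistein pool of PND 50 Lcp2 alone passed against control (adjusted p = 0.0363) and Spt1 alone against genistein (log2 -2.46, adjusted p = 0.00745). The lowest counts against vinclozolin and the sum came without mixture pool 2 and the highest without vinclozolin pool 1, and the 78 came without genistein pool 2. Against vinclozolin there were also 140 without vinclozolin pool 2 and 199 without either mixture pool of PND 50; against the sum, 98 and 54 without control pools 1 and 2, 122 without vinclozolin pool 2, 53 and 405 without genistein pools 1 and 2, 111 without mixture pool 1 and 123 without either mixture pool of PND 50. Values near 0 turned sign: Elf5 ran from -0.17 to 0.044, Prlr from -0.074 to 0.15, Areg from -0.13 to 0.62, Wnt4 from -0.048 to 0.11 and Krt25 from -0.15 to 0.36; without control pool 2 Prlr was -0.038 and Wnt4 -0.042. Csn1s2b, Krt25 and Myod1 lay near the dim end of the arrays, where differences are least reliable.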
